A study of Rattus norvegicus with 34 samples.

Results

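*Gfap*, *Serpina3n*, and *Lcn2* are 3 of the 48 genes on a quantitative PCR card that was run with RNA of the whole rat retina, and 3 of the 44 genes on it that are not reference genes. They were chosen by name, as genes that Müller glia are known to express when they become reactive. Earlier results of these data were known when the choice was made. The study asked how intravitreal liposomes loaded with clodronate, used there to activate microglia, act on the retina of PKD rats, in which photoreceptors and capillaries are lost. PKD rats overexpress a truncated polycystin-2 under the broadly active CMV promoter, and according to the study's methods the animals were male and homozygous. The groups were SD (Sprague Dawley rats without the transgene, uninjected, 6 rats), PKD (uninjected, 6 rats), PKD + Clodronate (5 rats), and PKD + Controlliposomes (6 rats). Both liposome groups had intravitreal injections of 3 µl at 4 and at 8 weeks of age, and all rats were examined at 9 weeks. The 3 PKD groups share the transgene, and an uninjected eye is not a control for the injection itself. The labels also hold 5 PKD + PBS and 6 SD + Clodronate samples, which were not analysed here.

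Müller glia span the retina and keep its ions, water, and metabolites in balance. When neurons are damaged, they become reactive and build up GFAP, an intermediate filament protein that they hardly contain in a healthy retina and that astrocytes of the nerve fiber layer contain at all times. *Serpina3n* encodes a secreted inhibitor of serine proteases and *Lcn2* encodes lipocalin 2, a secreted protein that binds iron carriers of bacteria, and both are widely used as markers of reactive astrocytes and Müller glia. Signals through STAT3, NF-kB, and AP-1 are known to act on genes of this kind. The card held no gene that marks Müller glia apart from astrocytes, so the cell that produced the RNA was not checked.

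In the rat assembly GRCr8 of RefSeq, *Gfap* lies at chr10:88352987-88361661, *Serpina3n* at chr6:129088392-129095950, and *Lcn2* at chr3:36078432-36081851. The sequences ahead of these genes are shown because the 3 genes were higher together in every PKD group. Each line gives, 5′ to 3′ on the strand of the gene, the RefSeq bases that end directly before the annotated gene, at chr10:88361662-88361911 (minus strand) for *Gfap*, chr6:129088142-129088391 (plus strand) for *Serpina3n*, and chr3:36081852-36082030 (minus strand) for *Lcn2*. Capitals mark a match to a searched motif.
Gfap: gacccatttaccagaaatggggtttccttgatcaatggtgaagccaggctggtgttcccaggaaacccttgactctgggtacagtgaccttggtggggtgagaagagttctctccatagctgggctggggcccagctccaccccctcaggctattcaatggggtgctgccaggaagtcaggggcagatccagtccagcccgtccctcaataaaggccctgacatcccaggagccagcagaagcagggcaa
Serpina3n: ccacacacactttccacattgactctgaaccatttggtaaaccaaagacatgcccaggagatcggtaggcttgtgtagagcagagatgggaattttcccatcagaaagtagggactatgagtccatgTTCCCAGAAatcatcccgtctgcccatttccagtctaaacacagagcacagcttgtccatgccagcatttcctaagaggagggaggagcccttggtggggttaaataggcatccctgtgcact
Lcn2: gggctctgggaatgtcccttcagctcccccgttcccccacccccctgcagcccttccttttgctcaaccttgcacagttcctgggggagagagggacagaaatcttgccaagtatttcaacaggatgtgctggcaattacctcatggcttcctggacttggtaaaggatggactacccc
The motifs TTCNNNGAA (STAT), TGANTCA (AP-1), GGGNNTTTC (NF-kB), and TATAAA were searched on both strands from 250 bases before to 50 bases after the transcript start of the RefSeq table, which for *Lcn2* lies inside the annotated gene. The only match in the 3 windows was TTCCCAGAA for the STAT motif in *Serpina3n*, starting at position -123 from the transcript start. Of 33469 rat promoter windows of the same length, 8.87% held the STAT motif, 7.33% the AP-1 motif, 4.53% the NF-kB motif, and 14.2% TATAAA. A match describes letters and is not evidence of binding. Sites that differ from these strings were not searched, so the lack of a match does not show that a factor cannot bind.

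Levels were calculated for each rat as the average Cq of 4 reference genes (18S, *B2m*, *Mrpl19*, and *Ywhaz*) minus that of the gene in question, and are given as log2 values with the SD mean at 0. Cq is the PCR cycle at which a well passes the detection threshold, so that a lower Cq means more RNA. A step of 1 on this scale is a doubling at full amplification efficiency. All 69 wells of the 3 genes had a Cq, between 18.3 and 28.65, and the mean Cq of the reference genes lay between 15.72 and 17.15 in the 23 rats. There was 1 well per gene and rat, so the number of rats limits the precision.

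*Gfap* was low in SD rats and high in every PKD rat, whatever the treatment. In SD rats its level was -0.84 at the lowest, -0.20 at the median, and 1.80 at the highest, and the highest was rat 97 (its number in the deposited table), with the next at -0.055. In untreated PKD rats the values were 2.49, 2.57, and 2.83. The 6 untreated PKD rats were above all 6 SD rats, and they lay close together, with a standard deviation of 0.131. In SD rats it was 0.928 with rat 97 included, while the other SD rats lay between -0.84 and -0.055. The 5 clodronate-treated rats had levels of 2.33, 2.93, 3.14, 2.94, and 2.78, an order of rats that is kept for the other genes. Control liposome-treated rats had 2.65 at the lowest, 2.91 at the median, and 3.33 at the highest. Both treated groups were likewise above all SD rats and overlapped with untreated PKD rats. Some other genes, such as *Socs3*, were also fully apart from SD rats in all 3 PKD groups. In whole retina, more cells that contain a transcript and more transcript per cell cannot be told apart.

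*Serpina3n* had the largest mean difference from SD rats of the 3 genes and differed most between rats of one group. SD rats were at -2.65, -0.61, and 4.04 (lowest, median, and highest), with a standard deviation of 2.34, and rat 97 was again the highest, with the next rat at 1.14. Untreated PKD rats were at 2.87, 4.08, and 6.03. SD rat 97 was above 3 of the 6 untreated PKD rats, and the other 5 SD rats were below all of them. The clodronate-treated rats had levels of 2.75, 4.05, 4.32, 4.50, and 4.16. Control liposome-treated rats were at 3.65, 4.78, and 7.46, and the last of these was the highest level of all 23 rats. The *Serpina3n* assay is of the type the manufacturer marks for genes of a family with high sequence homology. The RefSeq table places 6 other *Serpina3* genes on the same chromosome, of which *Serpina3l*, *Serpina3c*, *Serpina3a*, *Serpina3j*, and *Serpina3m* are the nearest, so transcripts of such relatives may be included in its values.

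*Lcn2* had the smallest mean difference from SD rats of the 3 genes. SD rats were at -2.71, 0.47, and 1.38, and the lowest of them, rat 99, was well below the next at -0.35. Untreated PKD rats were at 1.83, 2.09, and 2.31. All 6 were above the highest SD rat, which was again rat 97. The clodronate-treated rats had levels of 1.42, 2.11, 2.60, 2.47, and 1.94, and control liposome-treated rats were at 1.71, 2.59, and 3.11. The clodronate-treated rat at 1.42 was just above SD rat 97, and the 2 groups did not overlap.

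**Figure D1:**
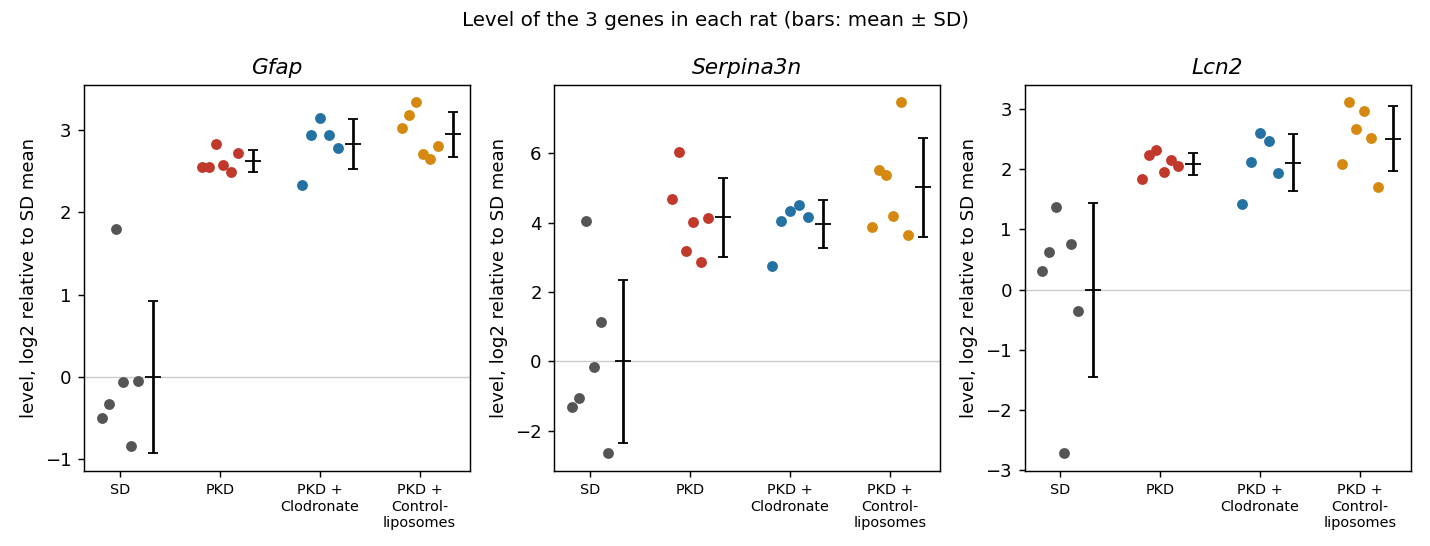
Level of *Gfap*, *Serpina3n*, and *Lcn2* in each rat (log2, relative to the SD mean), by group, with bars for the mean and the standard deviation. All PKD rats are above all SD rats for *Gfap* and *Lcn2*, while SD rat 97, at 4.04, lies among the PKD rats for *Serpina3n*. Some other genes on the card were likewise fully apart between SD rats and each PKD group.

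Compared to SD rats, all 3 genes were increased in untreated PKD rats, a comparison in which 36.6% of 41 genes had an adjusted p under 0.05 (limma, two-sided, Benjamini-Hochberg). The increase of *Gfap* was 6.15-fold, with a 95% confidence interval from 4.01 to 9.44. *Serpina3n* was increased 17.8-fold (5.70 to 55.5). *Lcn2* was increased 4.25-fold (2.27 to 7.96). The adjusted p-values in limma were 4.61e-08, 0.000128, and 0.000366. By log2 change they ranked 5, 3, and 6 among the 41 genes. Because the 3 genes were chosen with earlier results of these data known, these p-values and ranks are no independent test. The exact permutation test over rats gave p = 0.00216 for *Gfap* and *Lcn2*, the smallest that 6 rats against 6 allow, and p = 0.00866 for *Serpina3n*. That smallest p is reached when the 2 groups do not overlap. *Edn2*, *Fgf2*, *Socs3*, and *Tnfrsf12a* reached it as well, so groups that lie fully apart were not particular to *Gfap* and *Lcn2*. Without SD rat 97, the log2 change of *Serpina3n* was 4.96 in place of 4.15.

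The treated PKD groups were compared with the same 6 SD rats. In clodronate-treated rats 51.2% of the genes passed, and all 3 genes were among them and higher. *Gfap* differed from SD rats by 2.83 on the log2 scale (standard error 0.314, adjusted p = 5.42e-08 in limma). *Serpina3n* differed by 3.95 (standard error 0.836, adjusted p = 0.000335) and *Lcn2* by 2.11 (standard error 0.461, adjusted p = 0.000386). In control liposome-treated rats 63.4% of the genes passed, again with all 3 genes higher. Here *Serpina3n* ranked first, with 5.01 (standard error 0.797, adjusted p = 7.23e-06), or 32.3-fold with an interval from 10.3 to 100.7. *Gfap* differed by 2.95 (standard error 0.300, adjusted p = 6.15e-09) and *Lcn2* by 2.51 (standard error 0.440, adjusted p = 2.79e-05). In the exact permutation test against SD rats, *Socs3* and *Tnfrsf12a*, among others, had p = 0.00216 with clodronate, the smallest possible. With control liposomes, *Edn2*, *Fgf2*, *Socs3*, *C3*, and *Itgam*, among others, reached the same p as *Gfap* and *Lcn2*. Groups fully apart from SD rats were thus not particular to these 2 genes. Without SD rat 97 the log2 change of *Serpina3n* was 4.76 for clodronate and 5.82 for control liposomes. Of the other ways to normalize than to the reference genes, the largest effect was seen when the mean of the specific genes replaced them. It shifted the median of all genes by -0.82 in the untreated, -0.88 in the clodronate, and -1.05 in the control liposome group compared to SD rats. Under it 7 genes were higher and 16 lower in untreated PKD rats, against 14 and 1 with the reference genes. *Gfap*, *Serpina3n*, and *Lcn2* still passed, at 1.80, 3.33, and 1.26.

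Among the PKD groups, none of the 3 genes passed. For clodronate-treated against untreated PKD rats 0% of the genes passed in limma, and 5 were under 0.05 before adjustment. None passed the exact permutation test after adjustment either, with 8 under 0.05 before it. *Gfap* differed by 0.21 on the log2 scale, with a 95% confidence interval from -0.44 to 0.85 (adjusted p = 0.736). *Lcn2* differed by 0.020 (-0.93 to 0.97, adjusted p = 0.990). The difference of *Serpina3n* was -0.20 (-1.92 to 1.52, adjusted p = 0.879). These intervals include a change of *Serpina3n* to 0.264 or 2.88 times its level in untreated PKD rats. For *Gfap* they include 0.736 or 1.81 times, so the *Gfap* result is the most precise of the 3. Their width rests on a spread estimated over all 4 groups, which includes the wide SD group. A limma fit of clodronate-treated and untreated PKD rats alone gave an adjusted p of 0.496 for *Gfap*. The same clodronate-treated rat was the lowest of its group for all 3 genes (2.33, 2.75, and 1.42). It also had the lowest reference mean Cq of the 23 rats, at 15.72, and the part of this in its levels was not tested.

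Control liposome-treated rats had the highest group mean of all 3 genes, without a difference from untreated PKD rats that passed after adjustment. In this comparison 2.44% of the 41 genes passed. The median log2 change of all 41 genes was 0.22, and *Gfap*, *Serpina3n*, and *Lcn2* ranked 17, 3, and 14 among them. *Gfap* was higher by 0.33 than in untreated PKD rats (-0.29 to 0.94, adjusted p = 0.569), and all 6 rats were above the mean of the untreated PKD rats. The exact permutation test of the 2 groups gave p = 0.0260 for *Gfap* before adjustment and 0.124 after it. In that test 12 of the 41 genes were under 0.05 before adjustment. *Lcn2* differed by 0.42 (-0.49 to 1.32, adjusted p = 0.576), and 4 of 6 rats were above every untreated PKD rat. *Serpina3n* differed by 0.86 (-0.78 to 2.50, adjusted p = 0.569), and by 0.37 without the control liposome-treated rat at 7.46. Against clodronate-treated rats, where 4.88% of the genes passed, the differences were 0.12 for *Gfap* (-0.53 to 0.77), 0.40 for *Lcn2* (-0.55 to 1.35), and 1.06 for *Serpina3n* (-0.66 to 2.78). The order of group means was therefore SD below all PKD groups for each gene, with neighbours among the PKD groups not told apart. Markers of microglia and macrophages on the card (*Aif1*, *Itgam*, *Tyrobp*, *Trem2*, *Fcgr3a*, and *Cd74*) were, as a mean over the 6, highest in the control liposome group. *Cd74* went the other way, with a group mean of 0.43 with clodronate against 0.26 with control liposomes. The mean level of the 6 markers was between 0.68 and 1.27 in control liposome-treated rats. It was -0.045 to 0.52 in untreated and -0.14 to 0.79 in clodronate-treated PKD rats and -0.77 to 0.73 in SD rats. Their summed level was between 0.31 and 1.38 in control liposome-treated, -0.19 and 0.48 in untreated, -0.27 and 0.95 in clodronate-treated PKD rats, and -1.28 and 1.00 in SD rats. The median of the summed level was higher in clodronate-treated (0.66) than in control liposome-treated rats (0.44). Of the 6 markers, 0 passed in limma for control liposomes against untreated PKD rats, and 2 were higher than in clodronate-treated rats. Against SD rats, 4 of 6 were higher in the control liposome group, near the 63.4% of all genes that passed there, and 2 of 6 in each of the other PKD groups. All 6 had a Cq in every rat, and their part in the 3 genes' levels was not tested.

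**Figure D2:**
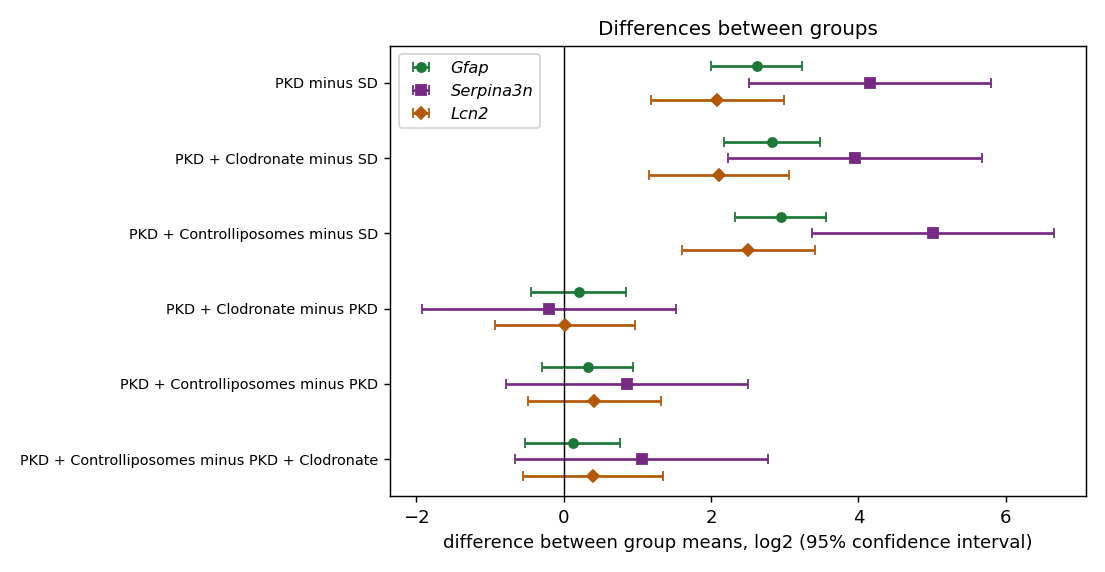
Difference between group means (log2) of *Gfap*, *Serpina3n*, and *Lcn2* with its 95% confidence interval, for the 6 pairs of groups. The 9 intervals against SD rats lie above 0, and the 9 intervals among PKD groups include 0.

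Whether the 3 genes changed unequally was tested on the difference of the Cq values of 2 genes in the same rat, which holds no reference gene. Relative to *Gfap*, *Serpina3n* was higher by 1.53 in untreated PKD than in SD rats (exact permutation test, two-sided, p = 0.119, adjusted p = 0.554). For *Lcn2* relative to *Gfap* the difference was -0.53 (exact permutation test, p = 0.463, adjusted p = 0.670). It depended on single SD rats, with -1.06 without rat 99 (exact permutation test, p = 0.00866, adjusted p = 0.104) and -0.21 without the rat that had the lowest *Gfap* level. Relative to *Serpina3n*, *Lcn2* differed by -2.06 (exact permutation test, p = 0.0779, adjusted p = 0.554). None of 12 such tests passed after adjustment, and the lowest adjusted p was 0.554. A difference among the 3 changes was not shown by these tests, in which the wide spread of the SD rats enters.

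The genes did differ in how far rats of one group lay apart. Over the 17 PKD rats, after removal of the group means, the standard deviation was 0.244 for *Gfap*, 0.419 for *Lcn2*, and 1.15 for *Serpina3n*. The standard deviation of *Serpina3n* was 4.72 times that of *Gfap* (exact test over all swaps of the 2 genes within rats, two-sided, adjusted p = 0.000549). That of *Lcn2* was 0.363 times that of *Serpina3n* (exact test, adjusted p = 0.00192). *Lcn2* varied 1.72 times as much as *Gfap* (exact test, adjusted p = 0.0228). This last result rested on single rats, since its adjusted p in the exact test was 0.0619 without the control liposome-treated rat at 2.08 for *Lcn2* and 0.0763 without the one at 1.71. In these rats the Cq of *Gfap* followed the reference mean Cq with r = 0.72, that of *Lcn2* with 0.48, and that of *Serpina3n* with 0.16 (17 rats, group means removed).

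**Figure D3:**
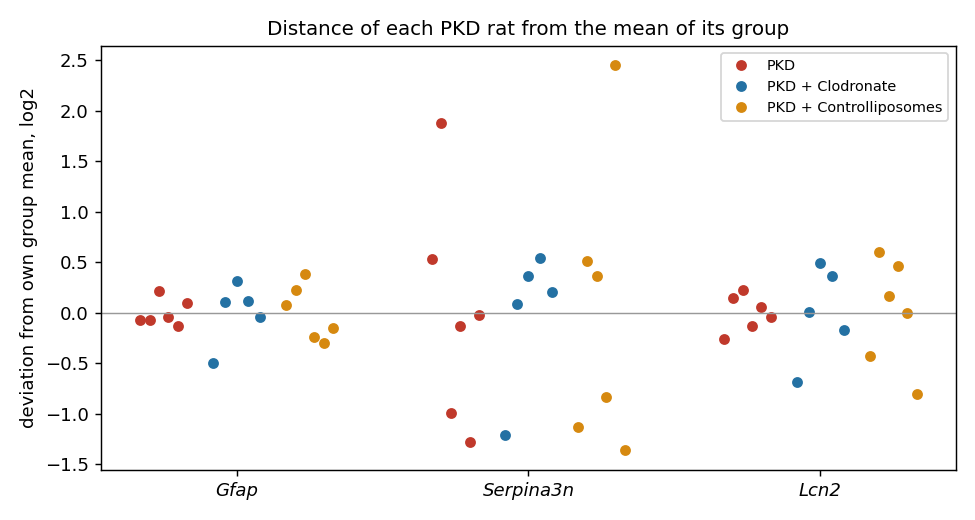
Deviation of each of the 17 PKD rats from the mean of its own group (log2) for *Gfap*, *Serpina3n*, and *Lcn2*, with points colored by group. The points of *Gfap* lie close to 0 (standard deviation 0.244) and those of *Serpina3n* far apart (standard deviation 1.15), with the highest point from the control liposome-treated rat at 7.46.

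No pair of the 3 genes varied together across rats past the threshold. Both genes of a pair share the reference mean of the rat, which by itself adds to a correlation. Over the 17 PKD rats, *Gfap* and *Lcn2* had r = 0.54 and rho = 0.54 (permutation test within groups, p = 0.0773 and 0.0602), and r = 0.39 without the 2 rats farthest from the median of *Gfap*. *Serpina3n* and *Lcn2* had r = 0.38 and rho = 0.41 (permutation test, p = 0.184 and 0.128), and r = 0.52 without the 2 farthest rats. *Gfap* and *Serpina3n* had r = 0.11 and rho = 0.25 (permutation test, p = 0.718 and 0.359), and r = -0.12 without them. In SD rats *Gfap* and *Serpina3n* had r = 0.69 and rho = 0.086 (6 rats, exact permutation test, p = 0.175 and 0.919), and r = -0.10 without the 2 farthest rats, rat 97 among them. Of 12 correlations over SD, untreated PKD, control liposome-treated, and all PKD rats, none passed after adjustment, and the lowest adjusted p was 0.734 for r and 0.70 for rho. SD and PKD rats form separate clusters, so the group means were removed wherever rats of both were pooled.

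**Figure D4:**
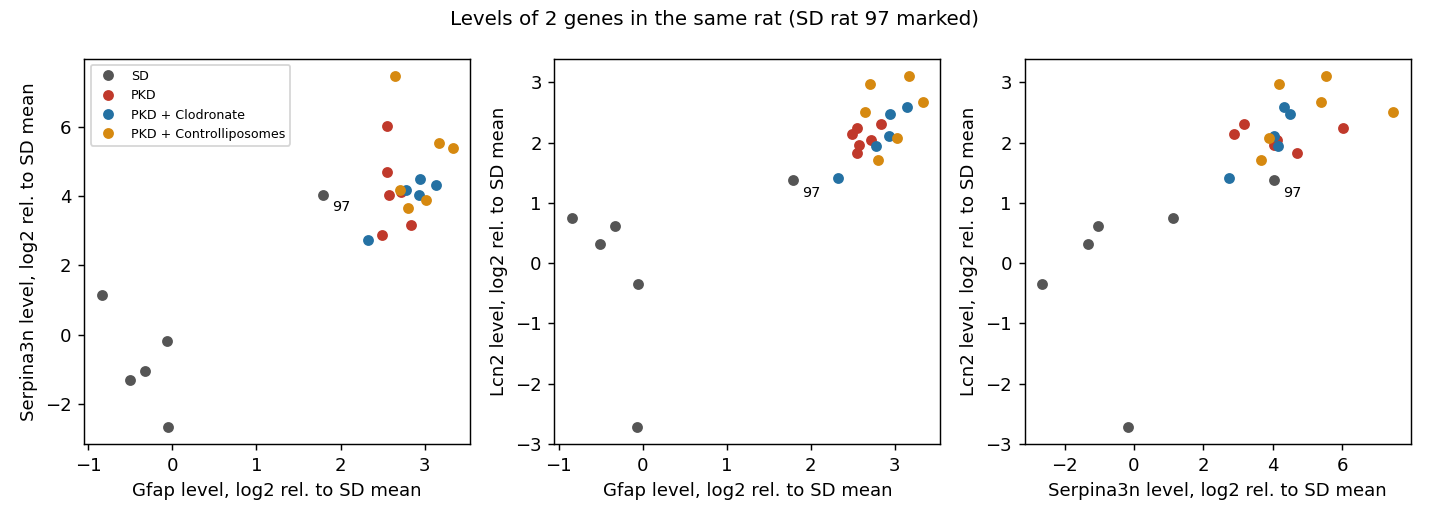
Levels of 2 genes in the same rat (log2, relative to the SD mean) for the 3 pairs of *Gfap*, *Serpina3n*, and *Lcn2*, with 1 point per rat colored by group. SD rat 97 (*Gfap* 1.80, *Serpina3n* 4.04, *Lcn2* 1.38) is marked and lies toward the PKD rats in each panel.

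Among 39 other genes with a Cq in every rat, those whose levels followed the 3 genes most closely within groups were named by Pearson's r, as a description. For *Gfap* over 23 rats they were *Socs3*, a feedback inhibitor of STAT3 signaling (r = 0.86), *Fgf2*, a growth factor that protects photoreceptors (0.85), and *Itgam*, an integrin of microglia and macrophages (0.76). The median r of *Gfap* with all 39 genes was 0.41. Without SD rat 97 these values were 0.63, 0.49, and 0.69. With the mean of the specific genes as normalizer they were 0.61, 0.66, and 0.24, and *Itgam* went from rank 3 to rank 10 of the 39 genes. For *Serpina3n*, *Socs3* (0.56), *Edn2*, which encodes endothelin 2 and is made by stressed photoreceptors (0.55), and *Fgf2* (0.55) came first. Without rat 97 they were at 0.14, 0.12, and 0.031, so the likeness of *Serpina3n* to these genes rested on that rat. With the other normalizer they were at 0.39, 0.41, and 0.32. For *Lcn2*, *Chi3l1* (0.39), *Serpina3n* (0.38), and *Gfap* (0.30) came first, and were at 0.14, 0.16, and -0.14 without it and at 0.46, 0.26, and 0.29 with the other normalizer.

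Within the 17 PKD rats, a set looked at after the pull of rat 97 had been seen, *Lcn2* was most like *C3*, the central protein of the complement cascade (r = 0.93). It stayed between 0.90 and 0.94 when any single rat was left out and was 0.87 with the mean of the specific genes as normalizer. In the control liposome-treated rats r was 0.96, in the untreated PKD rats 0.34, and in the SD rats -0.019 (6 rats each). The 5 clodronate-treated rats, too few for a coefficient of their own, had *C3* levels of 1.00, 1.75, 2.38, 1.89, and 1.30, which put them in the same order as their *Lcn2* levels. *C3* levels spanned 0.97 to 1.30 in the untreated PKD rats and 1.45 to 2.98 in the control liposome-treated rats. The same rat was the lowest control liposome-treated rat for both genes. *Gfap* was most like *Socs3* (0.72) in the 17 rats, with 0.60 under the other normalizer, and *Serpina3n* was most like *Lcn2* (0.38). All these genes share the reference mean and the cDNA of a rat.

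Other genes on the card that are known from glial reaction or from the stress signals that go with it were *Timp1*, *Socs3*, *C3*, *Chi3l1*, *Sphk1*, *Fgf2*, *Cntf*, *Edn2*, and *Il6*. This list was chosen with earlier results of these data known, so its counts beside those of all genes are no independent test. Compared to SD rats, 6 of these 9 were higher and none lower in untreated PKD rats, where 36.6% of the 41 genes passed. The median log2 change was 1.13 for the list, against 0.44 for all 41 genes. In clodronate-treated rats, where 51.2% of the 41 genes passed, 8 of 9 were higher (median 1.42, against 0.63). In control liposome-treated rats, where 63.4% passed, all 9 were higher (median 1.53, against 0.75). *Edn2*, known from stressed photoreceptors, and *Socs3* had changes of 4.23 and 4.75 under clodronate and of 4.75 and 4.44 under control liposomes, beside the 3.95 and 5.01 of *Serpina3n*. *Timp1*, an inhibitor of metalloproteinases, had changes of 0.72 in untreated (adjusted p = 0.173), 1.13 in clodronate-treated (adjusted p = 0.0271), and 1.53 in control liposome-treated rats (adjusted p = 0.00194). *Sphk1*, a kinase that makes sphingosine 1-phosphate, and the cytokine *Il6* had changes of 0.46 and 0.91 in untreated PKD rats (adjusted p = 0.10 and 0.0623). *Il6* was the gene that did not pass in clodronate-treated rats (0.75, adjusted p = 0.123). Between treated and untreated PKD rats, 0 of 9 passed for clodronate and 1 of 9 for control liposomes, which was *C3* with 1.16 (adjusted p = 0.0490). *C3* was no longer past the threshold in that comparison when the reference mean lacked *Mrpl19*, *B2m*, or *Ywhaz*. *Gfap*, *Serpina3n*, and *Lcn2* thus shared with most of this list an increase in all PKD groups compared to SD rats.

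**Figure D5:**
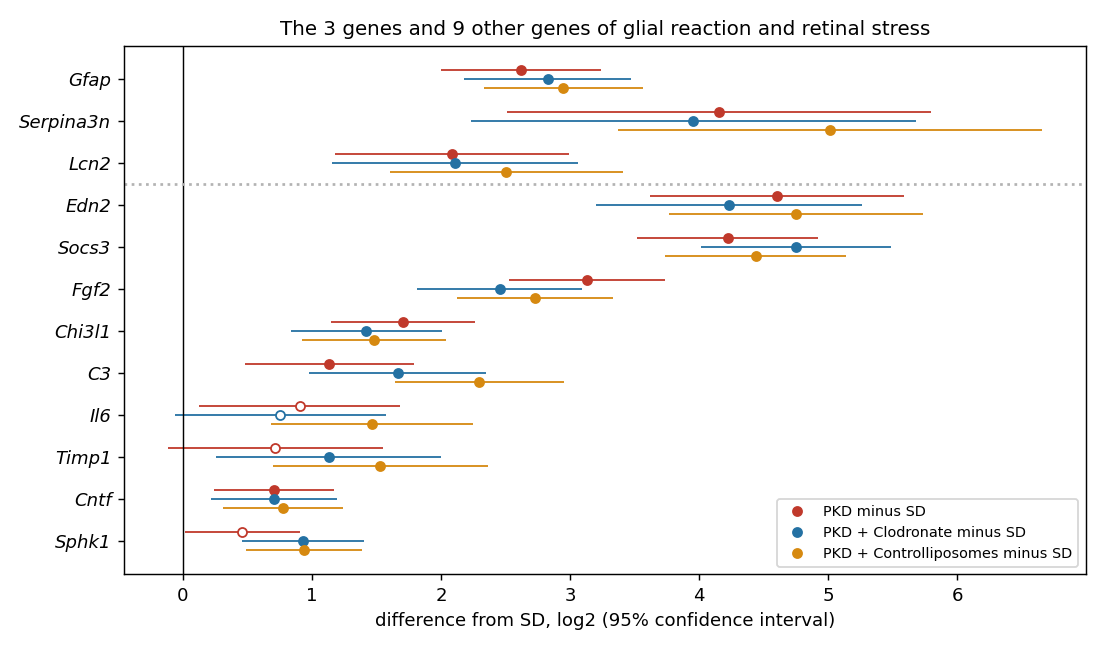
Log2 change compared to SD rats of *Gfap*, *Serpina3n*, *Lcn2*, and the 9 other genes of glial reaction and retinal stress in the 3 PKD groups, with lines for the 95% confidence interval and open points where the adjusted p did not pass 0.05. *Serpina3n* reaches 5.01 in control liposome-treated rats, and *Timp1* goes from 0.72 in untreated to 1.53 in control liposome-treated rats.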

How the data were processed

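Retinal RNA of single rats was reverse transcribed, pre-amplified for 14 cycles, and measured for at most 40 cycles on TaqMan microfluidic cards. The deposited values are the authors' Cq values per well before normalization (other than counts or intensities). The deposited signed fold changes between groups are the authors' own comparisons and were not used. Wells were named by matching Cq values to the symbols in the authors' supplement (48 of 48 within 0.001 cycles), and rats were assigned to groups through its sample list, because the column names are rat numbers. A further 11 columns were not used, since no source used here ties them to a group, and the PKD + PBS and SD + Clodronate samples of the labels were therefore not analysed here.

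Wells without a Cq were left out (57 of 1104, none of the 3 genes). The 41 genes with at least 3 Cq values in each of the 4 groups were fitted with limma 3.58.1 (lmFit and eBayes, R 4.3.3) over all 4 groups, with Benjamini-Hochberg adjustment over the 41 genes and a threshold of 0.05, following the linear one-way design of the study's methods. The shared estimate of the spread includes the wide SD group. Exact permutation tests used Python 3.11.15 and scipy 1.17.1, permutations over all PKD rats numbered 100000, and plots were drawn with matplotlib 3.10.9. All tests were two-sided, and each p-value sets a result against the variation between rats, which includes that of the single wells. The procedure was tested on simulated data. The alternatives left out each reference gene or each rat, used the mean of the specific genes, set empty wells to 40 cycles, kept only the 2 groups compared, or used an ordinary linear model or permutation test. The genes named are the members, the reference genes, the glial and microglial lists, and the 3 genes most like each member. The members and lists were chosen with earlier results of these data known. *C3*, *Pgf*, *C1s*, and *Tyrobp* as genes like *Gfap* or *Lcn2* in PKD rats were named after their values were seen.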

Additional observations from a re-analysis of the deposited data

Results flagged for a closer look

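Among 24 sets of values (levels and pairwise differences of the 3 genes in each of the 4 groups), 2 held a rat whose gap to its nearest neighbour was too large a share of the range for Dixon's test at 95%. Chance alone flags about 1 in 20 such sets. The first was *Gfap* in SD rats, where rat 97 was at 1.80 and the other 5 rats were between -0.84 and -0.055. The second was *Serpina3n* in clodronate-treated PKD rats, where 1 rat was at 2.75 and the other 4 rats were between 4.05 and 4.50.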

How the results depend on the processing

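No paired analysis was possible because the groups hold different rats, no source ties a replicate number to a shared litter, batch, or day, and the columns carry no such numbers. Compared to SD rats, *Gfap*, *Serpina3n*, and *Lcn2* stayed past the threshold and higher in all 3 PKD groups under every alternative, also without SD rats 97 and 99, a setting chosen after seeing the data (5.12 for *Serpina3n*, 3.05 for *Gfap*, and 1.75 for *Lcn2* in untreated PKD rats). Among the PKD groups no alternative brought any of the 3 genes past the threshold, but small differences changed sign, and the cause was not tested. The difference of *Gfap* between control liposome-treated and clodronate-treated rats was -0.044 with the mean of the specific genes and -0.0022 to 0.20 with 1 rat left out. That of *Lcn2* with clodronate against no treatment was -0.051 without 18S, -0.029 without *Mrpl19*, -0.038 with the mean of the specific genes, and -0.10 to 0.19 with 1 rat left out. That of *Serpina3n* was -0.45 to 0.18. With 1 rat left out, *Lcn2* relative to *Gfap* differed by -0.049 to 0.22 with control liposomes against no treatment, *Serpina3n* relative to *Gfap* by -0.018 to 0.92, and *Lcn2* relative to *Serpina3n* by -0.79 to 0.049. *Lcn2* relative to *Serpina3n* differed by -0.13 to 0.49 with clodronate against no treatment.

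The correlation of *Gfap* and *Lcn2* over PKD rats was 0.71 without *B2m* (permutation p = 0.00695), 0.59 without *Mrpl19* (permutation p = 0.0490), -0.0080 with the mean of the specific genes, and 0.35 to 0.70 with 1 rat left out. That of *Gfap* and *Serpina3n* was -0.13 with the mean of the specific genes and -0.11 to 0.45 with 1 rat left out, and that of *Serpina3n* and *Lcn2* was 0.24 to 0.49. The mean of the specific genes includes both genes of each pair, so correlations under it are not independent of the normalizer. The standard deviation of *Lcn2* was 1.45 to 1.92 times that of *Gfap*.

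Of all 41 genes, 23 passed between PKD and SD rats with the mean of the specific genes. With clodronate against no treatment 2 passed with that mean and 1 with empty wells at 40. With control liposomes against no treatment 3 passed without 18S, 5 with the mean of the specific genes, 5 in a fit of the 2 groups, 2 in an ordinary linear model, 4 in the permutation test, 3 with empty wells at 40, and 0 to 1 with 1 rat left out. In the same comparison 0 passed in limma without *B2m*, *Mrpl19*, or *Ywhaz*, and before adjustment 8, 6, and 7 genes were under 0.05. Between control liposome-treated and clodronate-treated rats 0 passed without *B2m* (limma, 5 genes under 0.05 before adjustment), 1 without *Mrpl19*, and 0 to 3 with 1 rat left out. How many copies lie behind each Cq is not known, and 5 or 6 rats with 1 well each limit all intervals.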

Other observations

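Within the 17 PKD rats, and after removal of the group means, the genes next in likeness after those named above were *Pgf*, a growth factor of vessels (r = 0.70), and *C1s*, a protease of the complement cascade (0.68), for *Gfap*. For *Lcn2* they were *Tyrobp*, an adaptor protein of microglia and macrophages (0.73), and *C1s* (0.70). The markers of endothelium and vessels (*Icam1* and *Pgf*) had a mean level between 0.38 and 0.99 in untreated, 0.48 and 1.47 in clodronate-treated, and 0.40 and 1.59 in control liposome-treated PKD rats, against -1.23 to 0.72 in SD rats. The scavenger and perivascular macrophage markers (*Mrc1* and *Stab1*) were between -0.39 and 0.58, -0.082 and 1.25, and -0.71 and 1.28 in the same PKD groups, and between -1.49 and 0.87 in SD rats.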
